A study of Mus musculus with 10 samples.

Results

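The 10 genes described here are markers of microglia, the resident macrophages of the brain: the 3 chains of complement C1q (C1qa, C1qb, C1qc), the receptor Trem2 and its adaptor Tyrobp, the receptors Csf1r, Cx3cr1 and P2ry12, the surface protein Tmem119 and the protease Ctss. They were taken by symbol from a table of 55536 gene identifiers, and all 10 were found. Ribosome-bound RNA had been isolated from mouse primary somatosensory cortex, at a site labelled S1DZ, by translating ribosome affinity purification (TRAP). In TRAP a tagged ribosomal protein is made only in cells with Cre recombinase, and its ribosomes are pulled down with an antibody against the tag. Every mouse line received the same virus, AAV5-EF1α-Flex-EGFPL10a, which carries EGFP-tagged L10a behind the broadly active EF1α promoter and needs Cre to be switched on. The injection was 400 nl per side and the tissue was taken 4 weeks later. By the labels, the groups differed in the gene that drives Cre: 3 libraries were from Il-17ra-Cre, 3 from Il-17rb-Cre and 4 from Il-17rc-Cre mice. Age, sex and strain are not given in the labels, nor whether each library came from its own animal, so p-values measure the spread between these libraries, which may be technical. What a pull-down holds depends on which cells the virus entered and which made Cre, and no library of whole tissue or of a pull-down without Cre was analysed here, so the level of unspecific carry-over is not known.

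Microglia depend on CSF1R signalling for survival and sense their surroundings through receptors such as CX3CR1, which binds the neuronal chemokine fractalkine, and P2RY12, which binds ADP released from injured cells. TREM2 recognises lipids and signals through the adaptor TYROBP (also called DAP12). C1q, made of 3 different chains, starts the classical complement cascade and in the brain comes mainly from microglia.

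The 3 C1q genes lie side by side on the minus strand of chromosome 4 (GRCm38, GENCODE M21): C1qb at chr4:136880129-136886187, C1qc at chr4:136889804-136893065 and C1qa at chr4:136895917-136898803. None of their exonic length is shared with another gene, and the same holds for Trem2 (chr17:48346401-48354147), Tyrobp (chr7:30413760-30417585), Ctss (chr3:95526786-95556403) and Tmem119 (chr5:113793729-113800516). Tyrobp lies 127 bases from its neighbour Hcst. Cx3cr1 (chr9:119901616-120069879) shares 1.73% of its exonic length with an antisense gene and P2ry12 (chr3:59216272-59262871) shares 0.35% with Med12l. Csf1r overlaps a gene too, described with its values. Strand was not marked by the kit, so reads on shared stretches cannot be told apart, and the rule used to count them is not known here. Med12l was at 1.13 to 4.16 CPM in the 10 libraries and passed in none of the 3 comparisons.

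Promoter windows were available from RefSeq (GRCm38.p6) for C1qb, C1qc, Ctss, Trem2, P2ry12 and Cx3cr1, each with 250 bases before the start used there and 50 after it. That start is not always the one in GENCODE. The P2ry12 window lies wholly outside the gene's coordinates given above, and the Cx3cr1 window (chr9:120068247-120068546) wholly inside them. Below are those of 3 members whose levels went together across libraries (C1qb, C1qc, Ctss) and of the 2 that departed most from them (Trem2, P2ry12). All run 5′ to 3′ on the strand of the gene, at chr4:136886151-136886450 (minus), chr4:136892865-136893164 (minus), chr3:95526536-95526835 (plus), chr17:48346151-48346450 (plus) and chr3:59262936-59263235 (minus). Capitals mark GAGGAA on either strand (TTCCTC where it is on the other one), letters of the core site of the myeloid factor PU.1. They also mark TGANTCA, a loosened form of the AP-1 site, whose middle base is usually C or G.
C1qb: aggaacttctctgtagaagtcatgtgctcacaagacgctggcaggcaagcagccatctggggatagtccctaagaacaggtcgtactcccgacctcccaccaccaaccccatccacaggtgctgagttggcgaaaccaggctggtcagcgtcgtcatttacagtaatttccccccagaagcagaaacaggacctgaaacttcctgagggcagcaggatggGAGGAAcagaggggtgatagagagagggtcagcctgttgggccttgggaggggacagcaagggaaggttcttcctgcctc
C1qc: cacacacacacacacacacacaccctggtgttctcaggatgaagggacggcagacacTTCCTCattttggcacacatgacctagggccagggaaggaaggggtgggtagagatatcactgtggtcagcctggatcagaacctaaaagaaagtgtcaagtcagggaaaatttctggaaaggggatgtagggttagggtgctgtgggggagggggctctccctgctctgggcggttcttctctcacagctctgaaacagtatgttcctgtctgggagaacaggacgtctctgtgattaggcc
Ctss: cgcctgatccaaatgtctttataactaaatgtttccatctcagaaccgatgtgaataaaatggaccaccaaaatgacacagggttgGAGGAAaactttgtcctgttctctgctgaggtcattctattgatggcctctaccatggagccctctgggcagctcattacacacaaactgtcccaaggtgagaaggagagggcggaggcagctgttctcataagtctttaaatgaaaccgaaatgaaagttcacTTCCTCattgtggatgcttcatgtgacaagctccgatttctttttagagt
Trem2: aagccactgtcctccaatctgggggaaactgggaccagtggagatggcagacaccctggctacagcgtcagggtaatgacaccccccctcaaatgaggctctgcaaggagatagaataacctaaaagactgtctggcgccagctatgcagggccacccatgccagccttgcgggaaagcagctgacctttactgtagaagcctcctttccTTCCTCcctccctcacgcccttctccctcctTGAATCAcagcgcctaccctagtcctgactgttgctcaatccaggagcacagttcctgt
P2ry12: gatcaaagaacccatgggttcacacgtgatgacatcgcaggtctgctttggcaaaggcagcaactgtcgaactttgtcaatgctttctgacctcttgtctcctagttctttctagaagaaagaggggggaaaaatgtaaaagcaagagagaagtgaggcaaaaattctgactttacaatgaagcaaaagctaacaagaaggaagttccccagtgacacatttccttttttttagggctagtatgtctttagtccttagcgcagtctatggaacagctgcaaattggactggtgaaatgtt
GAGGAA was found in 4 of the 6 windows, those of C1qb, C1qc, Ctss and Trem2, and in 28.3% of all 32851 windows in the table. TGANTCA was found in 1 of the 6, that of Trem2, and in 7.81% of all windows, and the 2 motifs do not overlap there. The letters in Trem2 are TGAATCA, with A in the middle, so they are not the usual AP-1 site. Neither was found in the windows of P2ry12 and Cx3cr1. Other forms of the 2 sites and windows at other starts were not searched, so a window without a match may still hold such a site. Such a match is a run of letters and does not show binding.

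Total counts per library ran from 39692925 to 165844244, and levels are given as CPM, counts scaled to library size with TMM factors. Il17rb itself had 0.614 to 0.872 CPM in the Il-17rb-Cre libraries and 1.27 to 3.75 CPM in Il-17ra-Cre, a difference that did not pass (edgeR adjusted p = 0.188), and 0.0667 to 2.72 CPM in Il-17rc-Cre. Il17ra was at 16.7 to 21.4 CPM in Il-17ra-Cre, 18.04 to 30.7 CPM in Il-17rb-Cre and 15.6 to 21.7 CPM in Il-17rc-Cre, and Il17rc at 21.3 to 41.2, 1.03 to 3.19 and 20.3 to 39.9 CPM. No driver gene was thus called higher in its own line than in both others, and directions hold for the libraries as labelled. Rpl10a, whose product carries the tag, read 58.7 and 70.9 CPM in Il-17ra-Cre replicates 1 and 2 but 678.8 CPM in replicate 3. It was at 602.4 to 669.6 CPM in Il-17rb-Cre and 190.8 to 267.1 CPM in Il-17rc-Cre, so those 2 replicates were the lowest of all libraries. The counts of called members are also given without Il-17ra-Cre replicates 1 and 2. Markers of neurons and astrocytes, the main cell types of cortex, were present in every group. In bulk RNA of this kind, fewer cells of a type and less RNA per cell cannot be told apart.

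All 10 members were highest, by group mean, in libraries labelled Il-17ra-Cre, and 9 were lowest in Il-17rb-Cre. Trem2 was the exception, with its lowest mean in Il-17rc-Cre. The members' CPM summed to between 836.9 and 1652 in the Il-17ra-Cre libraries, between 16.6 and 25.3 in Il-17rb-Cre and between 34.1 and 231.7 in Il-17rc-Cre. The ranges of this sum do not overlap between any pair of groups, and the Il-17rc-Cre libraries were the most uneven.

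**Figure D1:**
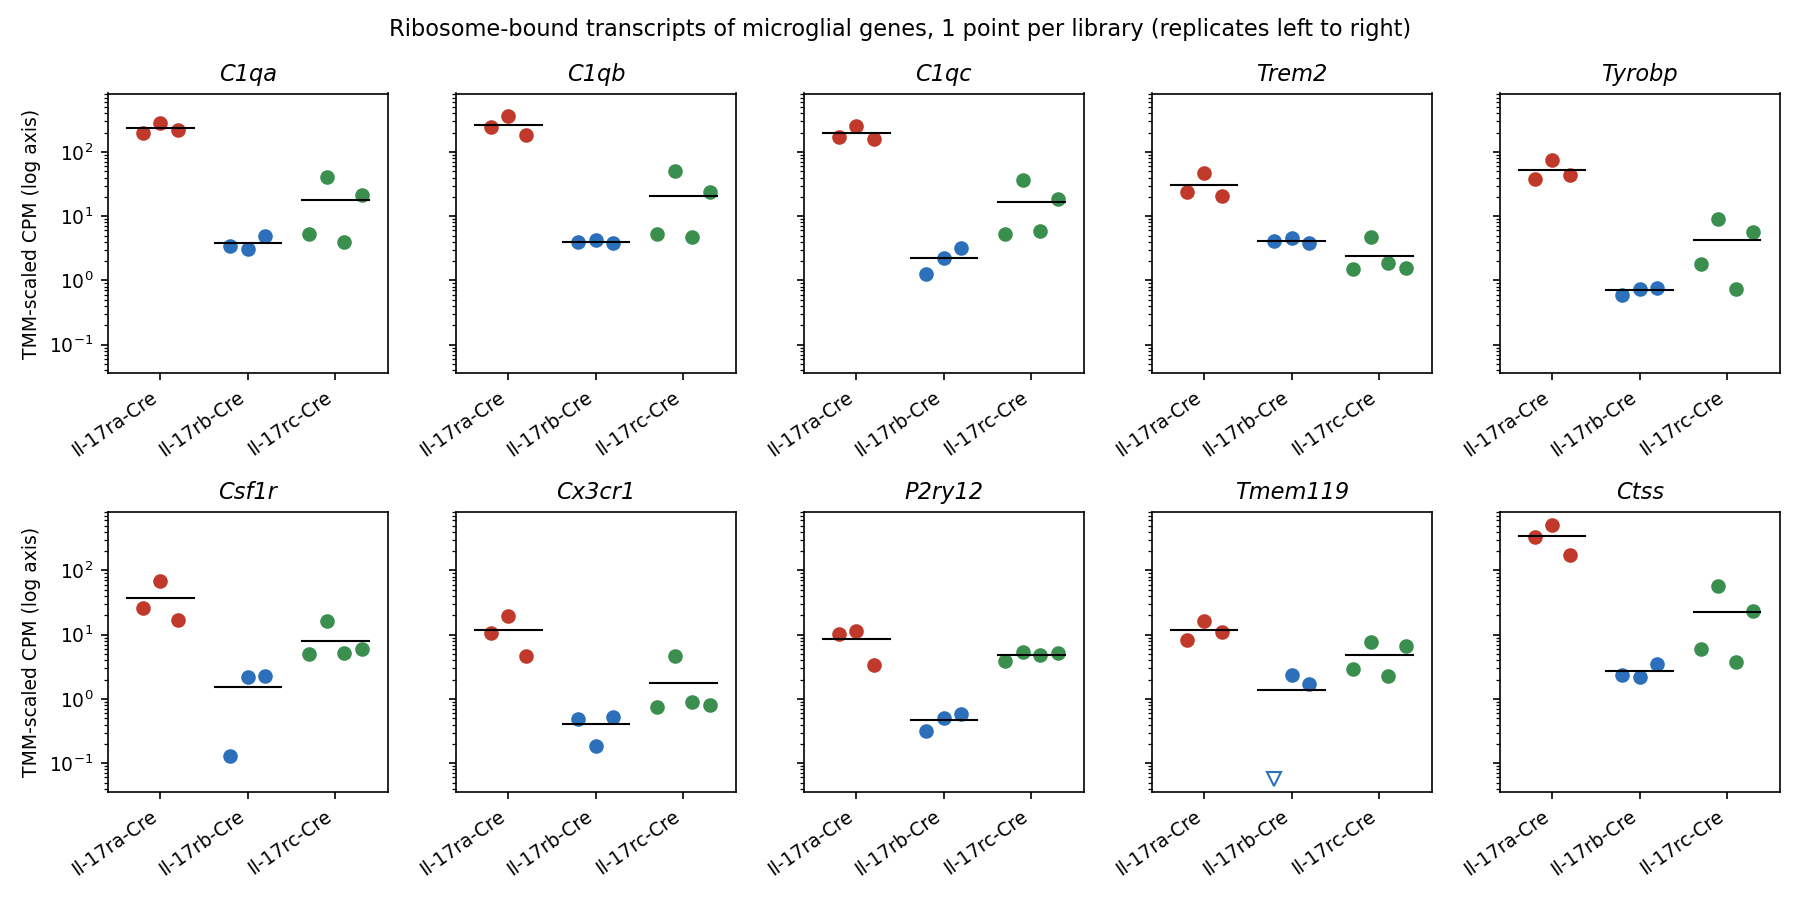
TMM-scaled CPM of each member (log axis) in each library, replicates from left to right within a group, with the group mean as a bar; the open triangle marks a library with 0 reads, drawn at the limit of 3 counts (0.0563 CPM). The Il-17ra-Cre points lie above all Il-17rb-Cre points for every member, and C1qa, C1qb, C1qc, Tyrobp and Ctss are higher in Il-17rc-Cre replicates 2 and 4 than in replicates 1 and 3.

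The C1q chains were abundant in Il-17ra-Cre and nearly missing from Il-17rb-Cre. C1qa was at 199, 278.3 and 219.1 CPM in the 3 Il-17ra-Cre replicates. It was at 3.40, 3.10 and 4.95 CPM in Il-17rb-Cre and at 5.21, 40.0, 3.91 and 21.2 CPM in Il-17rc-Cre replicates 1 to 4. The lowest Il-17ra-Cre library was thus far above every other library, while Il-17rc-Cre replicates 1 and 3 sat beside the Il-17rb-Cre libraries.

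C1qb was at 240.5, 365.1 and 185.5 CPM in Il-17ra-Cre, at 3.92, 4.20 and 3.86 CPM in Il-17rb-Cre and at 5.35, 50.2, 4.76 and 23.5 CPM in Il-17rc-Cre. C1qc was at 173.2, 257.2 and 156.8 CPM in Il-17ra-Cre, at 1.26, 2.24 and 3.19 CPM in Il-17rb-Cre and at 5.27, 36.8, 5.81 and 18.5 CPM in Il-17rc-Cre. Both shared the order of C1qa between groups, with Il-17rc-Cre replicate 2 highest in its group, then replicate 4. Within Il-17ra-Cre the order differed, since C1qa was lowest in replicate 1 and the other chains in replicate 3.

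Against Il-17ra-Cre, the log2 fold change in Il-17rb-Cre was -5.93 ± 0.88 (SE) for C1qa, -6.04 ± 0.93 for C1qb and -6.45 ± 0.84 for C1qc (edgeR quasi-likelihood test, adjusted p = 0.000585, 0.0007 and 0.000282). Against Il-17rc-Cre it was -2.21 ± 0.72, -2.39 ± 0.76 and -2.89 ± 0.70 (edgeR adjusted p = 0.0339, 0.0303 and 0.00836). Between Il-17ra-Cre and Il-17rc-Cre the 3 chains were higher in Il-17ra-Cre by 3.72 ± 0.70, 3.65 ± 0.73 and 3.56 ± 0.65 (edgeR adjusted p = 0.0384, 0.0426 and 0.0384). The step between Il-17rb-Cre and Il-17rc-Cre leans on Il-17rc-Cre replicates 2 and 4: C1qa was no longer called without either of them (edgeR adjusted p = 0.0825 and 0.0652), nor without any 1 of the Il-17rb-Cre libraries (edgeR adjusted p up to 0.102).

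The chains kept similar proportions where they were well measured. Of the C1q reads in the Il-17ra-Cre libraries (22732 to 95889 reads), C1qa took 30.9% to 39.0%, C1qb 33.0% to 40.5% and C1qc 27.9% to 28.6%. In Il-17rc-Cre replicates 2 and 4, with 9182 and 4469 C1q reads, the C1qc share was 29.0% and 29.3%. With only 457 to 839 reads in the Il-17rb-Cre libraries the C1qc share ranged from 14.7% to 26.6%, and in Il-17rc-Cre replicates 1 and 3, with 769 and 1085 reads, it was 33.3% and 40.1%. Shares on few amplified reads carry more error than their counts imply.

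Tyrobp and Trem2, which work as a pair, did not go together. Tyrobp was at 37.9, 73.8 and 44.0 CPM in Il-17ra-Cre, at 0.601, 0.747 and 0.758 CPM in Il-17rb-Cre and at 1.81, 8.98, 0.734 and 5.69 CPM in Il-17rc-Cre. It thus followed the C1q chains. Trem2 was at 23.7, 46.6 and 20.9 CPM in Il-17ra-Cre, at 4.07, 4.54 and 3.89 CPM in Il-17rb-Cre and at 1.48, 4.76, 1.87 and 1.54 CPM in Il-17rc-Cre. In Il-17rb-Cre it stood above 3 of the 4 Il-17rc-Cre libraries.

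In Il-17rb-Cre against Il-17ra-Cre, Tyrobp had a log2 fold change of -6.20 ± 0.88 and Trem2 one of -2.87 ± 0.50 (edgeR adjusted p = 0.000466 and 0.00145). Against Il-17rc-Cre, Tyrobp had a value of -2.61 ± 0.74 (edgeR adjusted p = 0.0184), while the value for Trem2 was 0.79 ± 0.44 and did not pass (edgeR adjusted p = 0.182). It passed without Il-17rc-Cre replicate 2 (1.35, edgeR adjusted p = 0.0101). Between Il-17ra-Cre and Il-17rc-Cre both were higher in Il-17ra-Cre, Tyrobp by 3.59 ± 0.69 and Trem2 by 3.65 ± 0.46 (edgeR adjusted p = 0.039 and 0.0168).

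The number of Trem2 reads per Tyrobp read was 0.626, 0.631 and 0.476 in the Il-17ra-Cre libraries. It was 6.78, 6.07 and 5.13 in Il-17rb-Cre and 0.818, 0.530, 2.55 and 0.271 in Il-17rc-Cre. All 3 Il-17rb-Cre libraries lay above the other 7. A two-sided exact permutation test of the log2 ratio gave p = 0.0571 against Il-17rc-Cre and p = 0.1 against Il-17ra-Cre, the smallest these group sizes allow (adjusted p = 0.171 and 0.18 over 9 such tests of 3 ratios chosen after their values were seen). The Trem2 reads behind this were 217, 340 and 272 in Il-17rb-Cre and the Tyrobp reads 32, 56 and 53. GENCODE holds a Trem2 transcript of 4784 bases beside its longest protein-coding one of 1088 bases, and the gene counts do not tell which of them the reads came from.

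**Figure D2:**
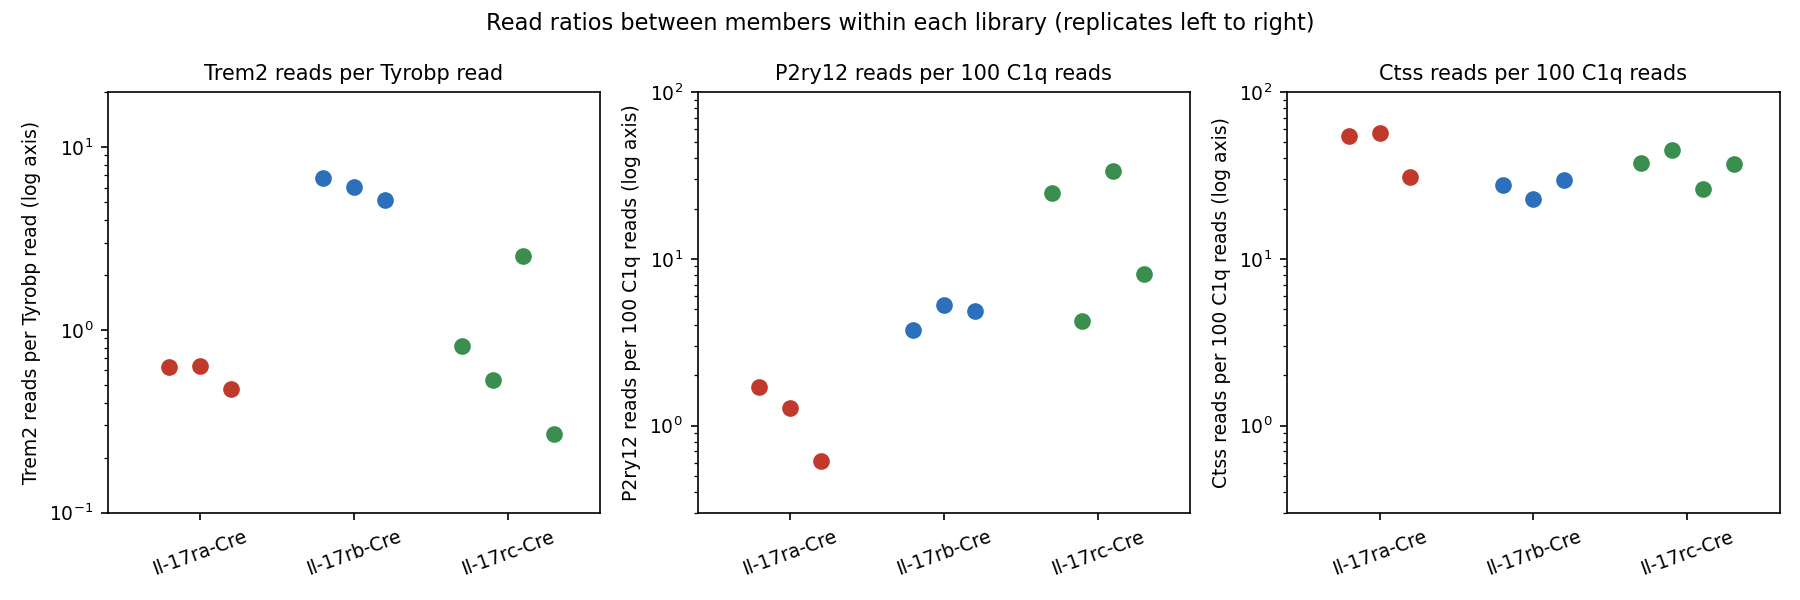
Reads of Trem2 per Tyrobp read, and of P2ry12 and Ctss per 100 reads of the 3 C1q genes, in each library (log axes, 1 point per library, replicates from left to right). Trem2 per Tyrobp is 5.13 to 6.78 in Il-17rb-Cre and at most 2.55 elsewhere, P2ry12 per C1q is lowest in Il-17ra-Cre, and Ctss per C1q stays between 22.9 and 57.1 in all libraries.

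Ctss encodes cathepsin S, a lysosomal protease that processes antigens. It was at 332.2, 514.6 and 174.3 CPM in Il-17ra-Cre, at 2.37, 2.19 and 3.54 CPM in Il-17rb-Cre and at 5.91, 56.9, 3.82 and 23.6 CPM in Il-17rc-Cre. Its log2 fold change of -6.98 ± 1.08 in Il-17rb-Cre against Il-17ra-Cre was the largest of the members (edgeR adjusted p = 0.000759). It was -3.06 ± 0.89 against Il-17rc-Cre and 3.91 ± 0.83 for Il-17ra-Cre against Il-17rc-Cre (edgeR adjusted p = 0.0199 and 0.0454). Ctss went with C1q over the libraries, at 22.9 to 57.1 reads per 100 C1q reads.

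The surface receptors were less abundant and less alike. Csf1r, the receptor for CSF1 and IL-34, was at 26.1, 68.9 and 17.1 CPM in Il-17ra-Cre, at 0.131, 2.22 and 2.29 CPM in Il-17rb-Cre and at 4.94, 16.3, 5.12 and 5.91 CPM in Il-17rc-Cre. Only 7 reads were counted in Il-17rb-Cre replicate 1, against 166 and 160 in replicates 2 and 3. In Il-17rb-Cre it was lower than in Il-17ra-Cre (log2 fold change -4.58 ± 0.97, edgeR adjusted p = 0.00403) and narrowly lower than in Il-17rc-Cre (-2.37 ± 0.85, edgeR adjusted p = 0.0487). The second call was lost when any library other than Il-17ra-Cre replicate 2 or 3 was left out (edgeR adjusted p up to 0.117). The difference of 2.21 ± 0.78 between Il-17ra-Cre and Il-17rc-Cre did not pass (edgeR adjusted p = 0.165), although the libraries do not overlap. Csf1r lies at chr18:61100598-61132149 (plus strand) and shares 15.12% of its exonic length with Hmgxb3 on the opposite strand. Hmgxb3 was at 13 to 38.9 CPM in the 10 libraries and passed in none of the 3 comparisons, in an order unlike that of Csf1r.

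Cx3cr1, the fractalkine receptor, was at 10.8, 19.9 and 4.66 CPM in Il-17ra-Cre, at 0.488, 0.187 and 0.529 CPM in Il-17rb-Cre and at 0.741, 4.68, 0.894 and 0.807 CPM in Il-17rc-Cre. Il-17rc-Cre replicate 2 reached the lowest Il-17ra-Cre library, and the other 3 were close to Il-17rb-Cre. Its log2 fold change was -4.87 ± 0.94 in Il-17rb-Cre against Il-17ra-Cre (edgeR adjusted p = 0.00254). The values of -2.15 ± 0.82 against Il-17rc-Cre and 2.72 ± 0.76 for Il-17ra-Cre against Il-17rc-Cre did not pass (edgeR adjusted p = 0.06 and 0.0897).

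P2ry12, the ADP receptor, had a different pattern. It was at 10.4, 11.5 and 3.42 CPM in Il-17ra-Cre, at 0.319, 0.507 and 0.586 CPM in Il-17rb-Cre and at 3.93, 5.40, 4.90 and 5.11 CPM in Il-17rc-Cre. The 4 Il-17rc-Cre libraries, so uneven for C1q, were even here, and all lay above Il-17ra-Cre replicate 3. Il-17rb-Cre was lower than both other groups, with log2 fold changes of -4.15 ± 0.49 against Il-17ra-Cre and -3.35 ± 0.47 against Il-17rc-Cre (edgeR adjusted p = 0.000166 and 0.000367). The difference between Il-17ra-Cre and Il-17rc-Cre was 0.80 ± 0.40 and did not pass (edgeR adjusted p = 0.326). It passed without Il-17ra-Cre replicate 3 (1.18, edgeR adjusted p = 0.0282) and turned to -0.57 without replicates 1 and 2, with 1 Il-17ra-Cre library left (edgeR adjusted p = 0.625).

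Per 100 C1q reads there were 1.70, 1.28 and 0.610 reads of P2ry12 in Il-17ra-Cre, 3.72, 5.32 and 4.89 in Il-17rb-Cre and 24.8, 4.25, 33.8 and 8.08 in Il-17rc-Cre. Every Il-17rc-Cre library was above every Il-17ra-Cre library in this ratio (difference of the mean log2 ratio, Il-17ra-Cre minus Il-17rc-Cre, -3.57, two-sided exact permutation p = 0.0571, the smallest possible; adjusted p = 0.171). The ratio of Csf1r to C1q was higher in Il-17rc-Cre in the same way (9.33 to 35.4 against 3.04 to 7.65 reads per 100 C1q reads, two-sided exact permutation p = 0.0571, adjusted p = 0.171).

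Tmem119, a surface protein used to tell microglia from other macrophages, was at 8.28, 16.3 and 10.98 CPM in Il-17ra-Cre, at 0, 2.38 and 1.70 CPM in Il-17rb-Cre and at 2.88, 7.59, 2.29 and 6.61 CPM in Il-17rc-Cre. The 0 in Il-17rb-Cre replicate 1 allows a level of up to 0.0563 CPM (3 counts, covering counting error only), while replicates 2 and 3 had 178 and 119 reads. It was lower in Il-17rb-Cre than in Il-17ra-Cre (log2 fold change -3.11 ± 1.10, edgeR adjusted p = 0.0444), a call that was lost when any library other than Il-17rb-Cre replicate 1 was left out (edgeR adjusted p up to 0.109). The values of -1.83 ± 1.01 against Il-17rc-Cre and 1.29 ± 0.94 for Il-17ra-Cre against Il-17rc-Cre did not pass (edgeR adjusted p = 0.177 and 0.53).

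**Figure D3:**
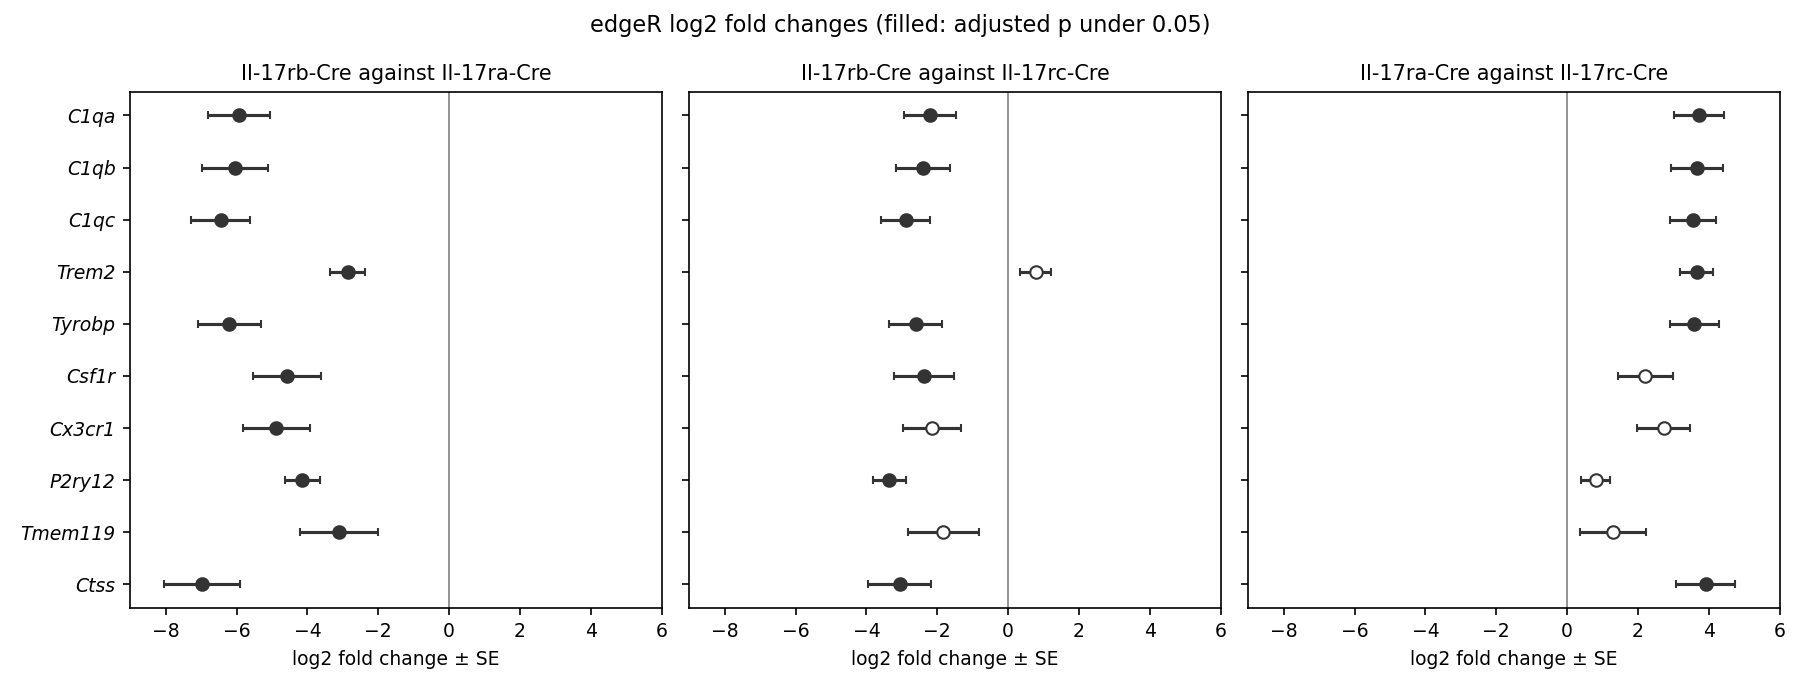
edgeR log2 fold change ± SE of each member in the 3 comparisons, filled where the adjusted p is under 0.05. All 10 points are filled and negative for Il-17rb-Cre against Il-17ra-Cre; against Il-17rc-Cre 7 are filled and Trem2 alone lies above 0; for Il-17ra-Cre against Il-17rc-Cre all lie above 0 and 6 are filled.

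Counted together, 10 of 10 members were lower in Il-17rb-Cre than in Il-17ra-Cre, where 24.4% of all tested genes were called lower and 16.4% higher (40.7% in either direction). The libraries of the groups did not overlap for any of the 10, as for 29.2% of all genes on the lower side, 24.6% on the higher side and 53.8% in either direction. The median log2 fold change was -5.40 for the members and -0.092 over all genes tested. Without Il-17ra-Cre replicates 1 and 2 the members' values ran from -6.11 for C1qc to -2.32 for Trem2 and 8 of 10 passed, with 1 Il-17ra-Cre library left that is taken to vary like the others.

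Against Il-17rc-Cre, 7 of 10 members were lower in Il-17rb-Cre and 0 higher, where 21.9% of all genes were called lower and 17.7% higher (39.7% in either direction). The groups did not overlap for 6 members, all lower, and for 25.5% of all genes on the lower side, 27.5% on the higher side and 53.0% in either direction. The median was -2.38 for the members and 0.02 over all genes. Of the 7, C1qc and P2ry12 were called in each fit that left out a single library. Over all genes, 5946 to 9151 were called when a single library was left out, against 8057 with all libraries. As few as 2 members were called when Il-17rb-Cre replicate 1 or 2 was left out, 3 without Il-17rb-Cre replicate 3 and 4 without Il-17rc-Cre replicate 4. Without Il-17ra-Cre replicates 1 and 2, which enter this comparison through the shared fit, 5 were called, and C1qa and Csf1r were lost (edgeR adjusted p = 0.0514 and 0.0534).

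Between Il-17ra-Cre and Il-17rc-Cre, 6 of 10 members (C1qa, C1qb, C1qc, Trem2, Tyrobp, Ctss) were higher in Il-17ra-Cre and 0 lower, in a comparison where 1.38% of all genes were called higher, 0.798% lower and 2.18% in either direction. The groups did not overlap for 8 members, all higher, and for 7.92% of all genes on the higher side, 6.65% on the lower side and 14.6% in either direction. The median was 3.57 for the members and 0.03 over all genes. These calls were fragile, like the whole comparison, where 0 to 2886 of all genes were called with a single library left out. Of the members, 0 were called without Il-17ra-Cre replicate 1 or 2 or Il-17rc-Cre replicate 1 or 3. Only 1 member (Trem2) was called without Il-17rc-Cre replicate 4 or any Il-17rb-Cre library, whose spread enters the shared error. Without Il-17ra-Cre replicates 1 and 2 together 0 were called. With a single library left out, every member kept its direction, with the C1qa value between 3.39 and 4.52. Others moved more for their size: Cx3cr1 from 2.08 to 3.85, Csf1r from 1.38 to 2.81 and P2ry12 from 0.479 to 1.18. Each pair of comparisons shares a group of libraries, so they are not independent of each other.

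The uneven Il-17rc-Cre libraries can be read against the Il-17ra-Cre mean. In replicate 2 the C1q chains, Tyrobp, Ctss and Trem2 were at 15.7% to 19.0% of that mean, and Csf1r, Cx3cr1, P2ry12 and Tmem119 at 39.7% to 64.0%. In replicate 4 the C1q chains were at 8.93% to 9.47%, Tyrobp at 10.97% and Ctss at 6.93%. In replicates 1 and 3 the C1q chains and Ctss were at 1.12% to 2.97%. P2ry12 was at 46.6%, 63.9%, 58.0% and 60.6% in replicates 1 to 4, the member closest to its Il-17ra-Cre level in replicates 1, 3 and 4. In the Il-17rb-Cre libraries the C1q chains, Tyrobp and Ctss were at 0.642% to 2.13%, while Trem2 was at 13.4%, 14.9% and 12.8% and Tmem119 at 0%, 20.0% and 14.4% in replicates 1 to 3.

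**Figure D4:**
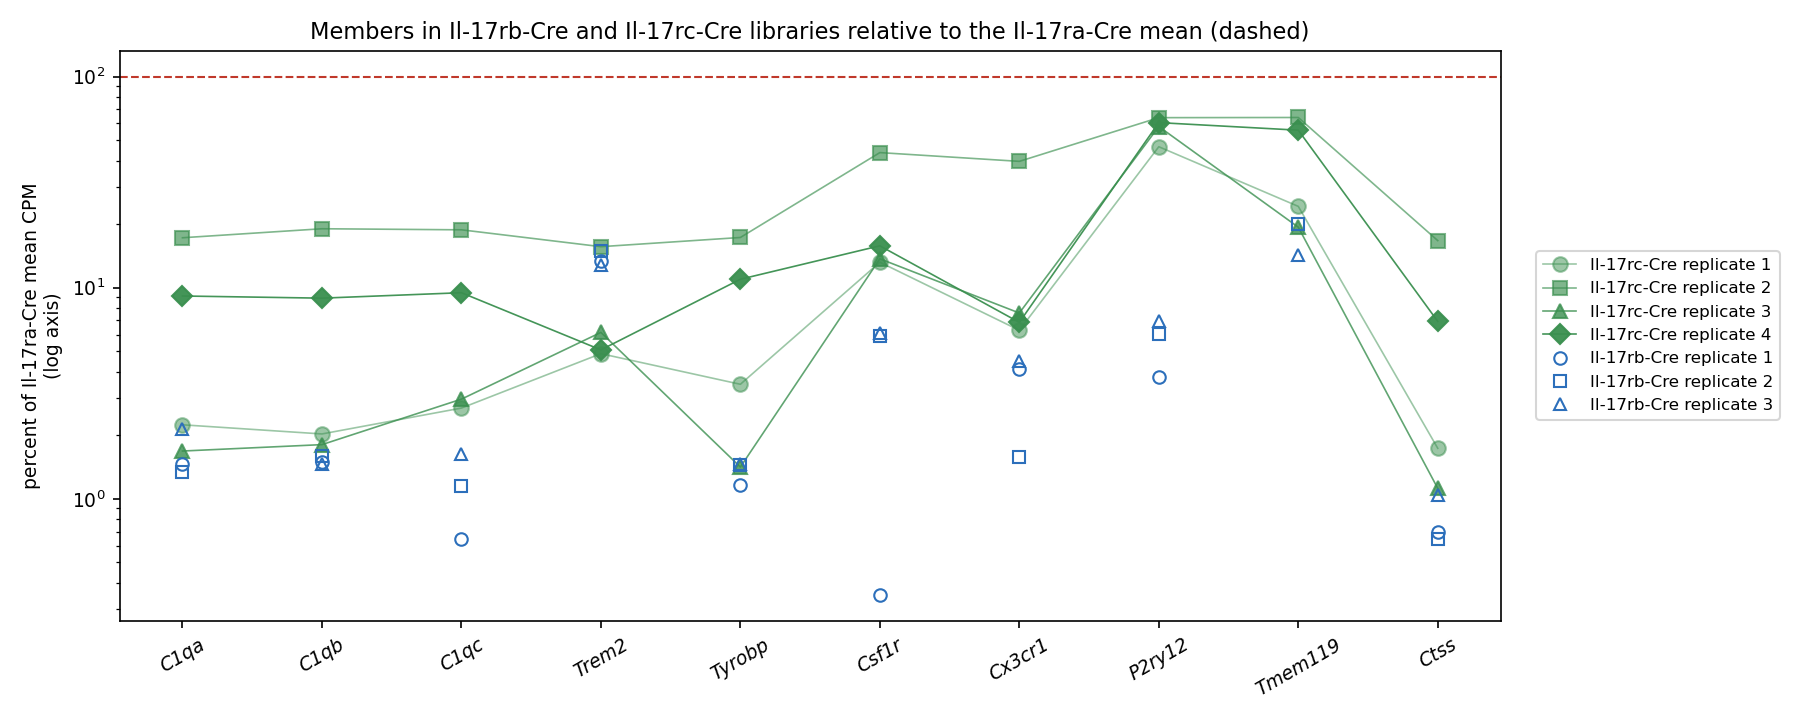
CPM of each member in the Il-17rc-Cre libraries (green, 1 line per replicate) and the Il-17rb-Cre libraries (blue, open) as a percent of the Il-17ra-Cre mean (dashed line at 100, log axis); Tmem119 in Il-17rb-Cre replicate 1, at 0, is not drawn. The green lines spread widely for the C1q chains, Tyrobp and Ctss and meet at P2ry12, at 46.6% to 63.9%.

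The same Il-17rc-Cre libraries differed in other markers. The summed oligodendrocyte markers were at 1207, 3832, 1019 and 2368 CPM in replicates 1 to 4, and monocyte and neutrophil markers at 1.63, 12.1, 1.38 and 15.6 CPM. The interferon-regulated factor Irf8, needed for microglial development, was at 10.9, 105.7, 24.2 and 139.4 CPM. Each was thus higher in replicates 2 and 4, like C1q. Other lists were not: lymphocyte markers summed to 11.9, 9.62, 27.6 and 14.9 CPM in replicates 1 to 4, endothelial markers to 43.0, 95.2, 34.3 and 25.3 CPM and mural markers to 479.3, 1036, 546.7 and 476.3 CPM. In Il-17ra-Cre the oligodendrocyte sum was 43140, 29630 and 5139 CPM in replicates 1 to 3, with all 7 markers called higher than in Il-17rc-Cre. Over all genes 1.38% were called higher in that comparison. The part of these marker differences in the members' values was not tested.

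To compare genes with each other, CPM was divided by exonic length. In Il-17ra-Cre, Ctss (250.7 ± 125.4 CPM per kilobase, SD, n = 3), C1qb (242.4 ± 84.6) and C1qa (223.2 ± 39.6) led and did not differ beyond their spread. C1qc followed at 101.4 ± 27.9 and Tyrobp at 77.8 ± 28.8 CPM per kilobase. Csf1r at 6.47 ± 4.79, Trem2 at 6.15 ± 2.85, Tmem119 at 5.12 ± 1.77, P2ry12 at 3.32 ± 1.72 and Cx3cr1 at 2.62 ± 1.70 CPM per kilobase had overlapping spreads between libraries. Within each Il-17ra-Cre library, Cx3cr1 was the lowest of these genes. In Il-17rc-Cre the means of C1qb (19.3 ± 19.6, n = 4), C1qa (16.9 ± 16.3) and Ctss (16.6 ± 18.1) again led. The place of Trem2 depends on the length used: with its longest coding transcript it was at 27.9 CPM per kilobase in Il-17ra-Cre. C1qc likewise was at 162.7 with that length.

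Other genes of microglia went the same way between Il-17rb-Cre and Il-17ra-Cre, and less uniformly elsewhere. The counts of this list and of those below stand beside the shares of all genes. In Il-17rb-Cre 24.4% of all genes were called lower and 16.4% higher against Il-17ra-Cre, and 21.9% and 17.7% against Il-17rc-Cre. Between Il-17ra-Cre and Il-17rc-Cre 1.38% were called higher in Il-17ra-Cre and 0.798% lower. Of 15 further microglial identity genes, 14 were lower in Il-17rb-Cre than in Il-17ra-Cre (median log2 fold change -4.05) and 8 lower than in Il-17rc-Cre (median -2.16). Between Il-17ra-Cre and Il-17rc-Cre 2 of the 15 passed, both higher in Il-17ra-Cre (median 1.60), among them Aif1, a calcium-binding protein of macrophages. Lgmn, a lysosomal protease and the most abundant of the list, was at 121.2 to 206.3 CPM in Il-17ra-Cre, 52.7 to 62.9 in Il-17rb-Cre and 70.4 to 116.7 in Il-17rc-Cre. Itgb5, an integrin subunit, was at 47.0 to 63.7 CPM in Il-17ra-Cre and at 70.6 to 106.1 in Il-17rc-Cre, the reverse order of C1q, though the difference did not pass (edgeR adjusted p = 0.111). Sall1, a transcription factor of microglial identity, was at 16.3 to 30.8 CPM in Il-17rc-Cre and 13.96 to 30.9 CPM in Il-17ra-Cre, and the log2 difference of -0.11 ± 0.48 did not pass (edgeR adjusted p = 0.945). Both are also made by other cell types elsewhere in the body. Itgam and Cd33 had no read in any Il-17rb-Cre library.

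Ligands of the member receptors did not all go one way. Cx3cl1, the fractalkine that neurons make, was higher in Il-17rb-Cre by 1.64 ± 0.23 against Il-17ra-Cre and 1.51 ± 0.21 against Il-17rc-Cre (edgeR adjusted p = 0.000413 and 0.000353). Its receptor went the other way but passed only against Il-17ra-Cre. The 8 neuron markers were higher in Il-17rb-Cre too, with median log2 fold changes of 2.02 and 1.89 in these comparisons. Il34, a neuronal ligand of CSF1R, was at 69.7 to 75.5 CPM in Il-17rb-Cre against 18.8 to 36.8 in Il-17ra-Cre (1.40 ± 0.28 on the log2 scale, edgeR adjusted p = 0.00327). Against Il-17rc-Cre its value of 0.61 ± 0.26 did not pass (edgeR adjusted p = 0.0862). Csf1, the other ligand, was at 5.65 to 8.55 CPM in Il-17rb-Cre, 81.0 to 173 in Il-17ra-Cre and 60.2 to 132.5 in Il-17rc-Cre, and fell by 4.39 ± 0.42 and 3.90 ± 0.40 against those groups (edgeR adjusted p = 5.02e-05 and 5.9e-05). Of the 11 genes in this list, 8 were lower and 2 higher in Il-17rb-Cre than in Il-17ra-Cre, and 0 passed between Il-17ra-Cre and Il-17rc-Cre. Apoe, a lipid carrier that TREM2 binds and astrocytes make in quantity, was at 207.1 to 243.9 CPM in Il-17rb-Cre against 2279 to 10900 in Il-17ra-Cre and 3886 to 9347 in Il-17rc-Cre.

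Among relatives of the members, 11 of 12 other cathepsins and their inhibitors were lower in Il-17rb-Cre than in Il-17ra-Cre and 10 of 12 than in Il-17rc-Cre, and 0 of 12 passed between the last 2 groups. Ctsb, the most abundant, was at 1499 to 3743 CPM in Il-17ra-Cre, 644.8 to 807.4 in Il-17rb-Cre and 1030 to 1682 in Il-17rc-Cre, a far smaller range than that of Ctss. Of 7 other purinergic receptors 4 were lower in Il-17rb-Cre than in Il-17ra-Cre and 3 than in Il-17rc-Cre. P2ry14, a receptor for UDP-sugars, was the only 1 of the 7 that passed between Il-17ra-Cre (2.35 to 4.59 CPM) and Il-17rc-Cre (8.71 to 20.8 CPM), the reverse order of the members (-1.94 ± 0.38, edgeR adjusted p = 0.0401). It was named after its values were seen. Calls in this comparison were fragile, and whether that of P2ry14 holds under the alternatives was not looked at. P2rx4 passed in none of the 3 comparisons, at 22.6 to 54.9 CPM in the 10 libraries, and P2rx7 fell by 4.23 ± 0.30 and 3.66 ± 0.29 (edgeR adjusted p = 9.75e-06 and 1.07e-05). Of 8 other TREM family and adaptor-linked receptors 5 could be tested, of which 2 were lower in Il-17rb-Cre than in Il-17ra-Cre, 1 than in Il-17rc-Cre, and 1 was higher in Il-17ra-Cre than in Il-17rc-Cre. Against Il-17rc-Cre, 1 of 5 was no more than the 21.9% called lower over all genes. Trem1 had no read in any library, and Trem3, Treml1, Treml2 and Treml4 were at 0 to 0.544 CPM. Clec5a, a receptor that signals through DAP12 like TREM2, was at 3.52 to 6.93 CPM in Il-17ra-Cre and 0 to 0.315 CPM in Il-17rb-Cre (edgeR adjusted p = 0.0113). Cd300c2, a receptor of the CD300 family, was at 3.69 to 13.8 CPM in Il-17ra-Cre, 0.0715 to 0.188 in Il-17rb-Cre and 0.255 to 0.789 in Il-17rc-Cre and differed in all 3 comparisons (edgeR adjusted p = 0.000281, 0.0446 and 0.0284).

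Of 7 myeloid transcription factors, 5 were lower in Il-17rb-Cre than in Il-17ra-Cre and the same number than in Il-17rc-Cre, with Mef2c, also a factor of cortical neurons, higher in both. Spi1, which encodes PU.1, was at 14.9, 29.2 and 12 CPM in Il-17ra-Cre, at 0.113, 0.534 and 0.257 CPM in Il-17rb-Cre and at 1.30, 5.55, 0.467 and 2.42 CPM in Il-17rc-Cre. Its log2 fold changes were -5.92 ± 0.97 in Il-17rb-Cre against Il-17ra-Cre and -2.98 ± 0.84 against Il-17rc-Cre (edgeR adjusted p = 0.00104 and 0.018). Of 10 genes known from disease-associated microglia, 9 were lower in Il-17rb-Cre than in Il-17ra-Cre, 8 than in Il-17rc-Cre, and 0 passed between Il-17ra-Cre and Il-17rc-Cre. The most abundant, Cd63 and Cd9, are also made by other glia. Cd63 was at 863.6 to 1104 CPM in Il-17ra-Cre, 17.8 to 22.8 in Il-17rb-Cre and 507.9 to 1185 in Il-17rc-Cre. Cst7, a cystatin, is counted both in this list and among the cathepsin inhibitors. It was at 28.3 to 59.9 CPM in Il-17ra-Cre and at 0.206, 4.61, 0.387 and 5.198 CPM in Il-17rc-Cre, again high in replicates 2 and 4.

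Spi1 was also the gene most like the members. Over the 10 libraries, its log2 CPM had a Pearson correlation of 0.992 with the mean of the members' scaled values. Next came C3ar1 (0.989), Pld4 (0.988), Ptpn6 (0.987), Hcar2 (0.982), Hcls1 (0.982) and Sept1 (0.982). These values describe 10 libraries that fall into 3 groups, and each gene shares its libraries and their depth with the members, so they carry no test. Ptpn6, a phosphatase of blood cells, was at 19.1 to 67.3 CPM in Il-17ra-Cre, 0.0751 to 1.39 in Il-17rb-Cre and 1.09 to 12.4 in Il-17rc-Cre. Hcar2, a receptor for niacin and ketone bodies, had no read in Il-17rb-Cre. Each member is itself part of that mean, which raises its own correlation. For the members it was 0.952 or more for 7 and lower for Tmem119 (0.896), P2ry12 (0.823) and Trem2 (0.817).

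Markers of other immune cells were measured beside the members. The 8 markers of border macrophages, which sit around vessels and in the meninges, summed to 6.55 to 29.9 CPM in Il-17ra-Cre, 0.414 to 1.29 in Il-17rb-Cre and 1.44 to 3.60 in Il-17rc-Cre. Pf4 and Cbr2 had no read in Il-17ra-Cre, and Mrc1 was at 0 to 0.637 CPM there, so most of the sum was Ms4a7 at 3.60 to 23.96 CPM. Mrc1, Lyve1, Cbr2 and Clec12a had no read in Il-17rb-Cre, and Lyve1 none in Il-17rc-Cre. Monocyte and neutrophil markers summed to 13.9 to 48.8 CPM in Il-17ra-Cre, 0.387 to 1.22 in Il-17rb-Cre and 1.38 to 15.6 in Il-17rc-Cre, with S100a9 at 0 reads in all libraries and Ccr2 and Ly6g at 0 in Il-17rb-Cre. Lymphocyte markers summed to 13.7 to 38.8, 2.34 to 6.14 and 9.62 to 27.6 CPM. In Il-17rb-Cre against Il-17ra-Cre 3 of 5 tested border macrophage markers, 4 of 5 monocyte and neutrophil markers and 4 of 7 lymphocyte markers were lower, and between Il-17ra-Cre and Il-17rc-Cre 0 of each list passed. Over all genes 24.4% were called lower in the former comparison, and 2.18% passed in either direction in the latter.

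Markers of the brain's own cells differed as well. Astrocyte markers summed to 6333 to 10980 CPM in Il-17ra-Cre, 362.3 to 391.8 in Il-17rb-Cre and 9715 to 11490 in Il-17rc-Cre, with 8 of 8 lower in Il-17rb-Cre in both comparisons and 0 passing between the other groups. Oligodendrocyte precursor markers summed to 710.1 to 2215, 52.2 to 75.5 and 616.5 to 787.1 CPM, with 5 of 5 lower in Il-17rb-Cre than in Il-17ra-Cre, 4 of 5 than in Il-17rc-Cre and 0 passing between the other groups. Of the 7 oligodendrocyte markers, which summed to 990.8 to 1120 CPM in Il-17rb-Cre, 7 were lower there than in Il-17ra-Cre and 1 (Cnp) than in Il-17rc-Cre. The latter count was no more than the 21.9% called lower over all genes. Neuron markers summed to 5706 to 10690, 29240 to 32520 and 4980 to 6694 CPM, with 5 of 8 higher and 1 lower in Il-17rb-Cre in both comparisons. Endothelial markers summed to 7.73 to 40.0, 1.11 to 5.67 and 25.3 to 95.2 CPM, with 1 of 6 lower in Il-17rb-Cre than in Il-17ra-Cre and 4 of 6 than in Il-17rc-Cre. The former count was no more than the 24.4% called lower over all genes. Mural markers, of the cells around vessels, were highest in Il-17rc-Cre at 476.3 to 1036 CPM, against 117.9 to 195 in Il-17ra-Cre and 4.30 to 8.53 in Il-17rb-Cre. What part these differences in cell type markers have in the members' levels was not tested.

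**Figure D5:**
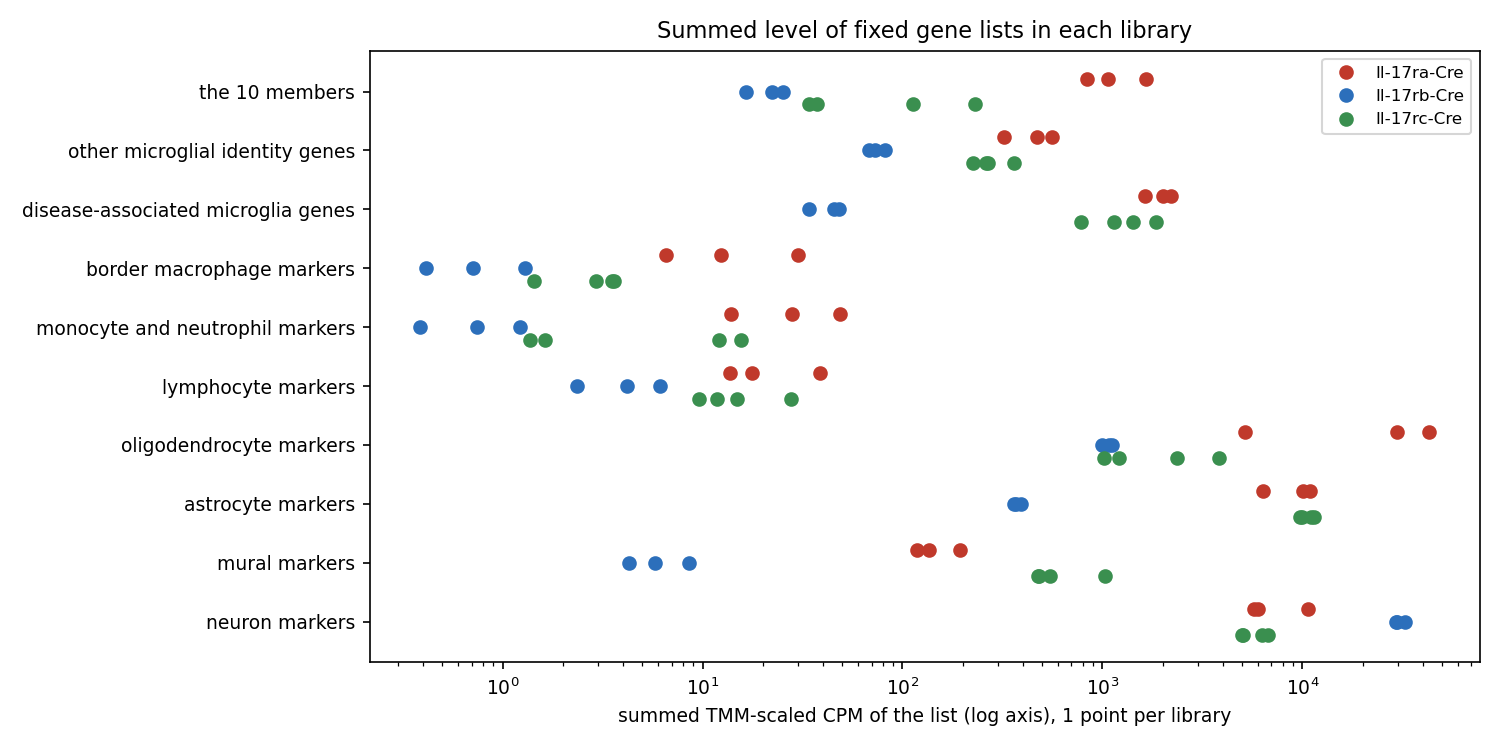
Summed TMM-scaled CPM of the members and of fixed marker lists (log axis), 1 point per library, colours by group. The member sums separate all 3 groups (836.9 to 1652, 34.1 to 231.7 and 16.6 to 25.3 CPM), while astrocyte sums of Il-17ra-Cre and Il-17rc-Cre overlap and neuron sums are highest in Il-17rb-Cre.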

How the data were processed

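The deposited file holds raw counts per Ensembl gene for 10 libraries. Reads had been aligned with STAR 2.7.5c to GRCm38, per the submitters' processing notes, and libraries were made with the SMART-Seq v4 kit, per the labels' protocols. The counting method (also its strand setting) is not given in the sources used here, likewise annotation and trimming. Of 55536 identifiers, 55450 were matched to GENCODE M21. Genes passing edgeR's expression filter by group were kept, which left 20301, and all 10 members passed it (8 of them also on the Il-17rb-Cre libraries alone). The quasi-likelihood F test of edgeR 4.0.16 (R 4.3.3) was run on TMM-scaled counts in 1 model of 10 libraries, with Benjamini-Hochberg adjustment over all tested genes at 0.05. Errors beside means are SD, those beside log2 fold changes SE. The members and lists were chosen with earlier results of these data known. Named beside the members were up to 2 of the most abundant genes of the lists close to microglia, the receptors' ligands, Spi1, and the 8 genes most correlated with the members (average log2 CPM of at least 1, prior of 0.5 CPM); Sall1, Cst7, Itgam, Cd33, Aif1, P2ry14, Mrc1 and other genes at 0 were added after their values were seen, and lists of other brain cells are given as sums. Some genes that these rules name are not reported here. The code was tested on simulated data. Alternatives were DESeq2 1.42.0, limma 3.58.1 voom, other scalings and filters, fits on just the compared groups, replicate blocks and left-out libraries. Amplified reads without molecular identifiers are not independent molecules, so counting limits cover counting error only.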

Additional observations from a re-analysis of the deposited data

Results flagged for a closer look

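In Il-17rc-Cre, the group of 4 libraries, replicate 2 stood apart from the other 3 for 3 members by Dixon's test at 95%, run on CPM. Trem2 was at 4.76 CPM there, Cx3cr1 at 4.68 CPM and Csf1r at 16.3 CPM, with gaps of 0.882, 0.961 and 0.915 of the group's range, above the test's critical value. Chance flags about 1 group in 20, and the 10 members are not independent of each other. The other 7 members did not pass this limit.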

How the results depend on the processing

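For Il-17rb-Cre against Il-17ra-Cre, 8 to 10 of the 10 members were called lower under every alternative, and 9 or 10 when a single library was left out. Against Il-17rc-Cre, 7 were called, 3 with limma voom (where Trem2 was called higher), 3 with the title's replicate number as a replicate block, and 2 to 8 when a single library was left out. Between Il-17ra-Cre and Il-17rc-Cre, 6 were called, and 8 with DESeq2 and 9 with limma voom. There 0 were called in the model of only these groups, with either replicate block, without Il-17ra-Cre replicates 1 and 2 together or without Il-17rc-Cre replicates 1 and 3 together, and 0 to 8 when a single library was left out. The cause was not tested. The value of 0.80 for P2ry12 turned to -0.57 without Il-17ra-Cre replicates 1 and 2. No label says that a replicate number marks a shared animal. Over all genes tested, deviations of same-numbered libraries from their group means had correlations of -0.151 to 0.247, which do not exclude a shared batch. Every member was highest in replicate 2 within both Il-17ra-Cre and Il-17rc-Cre, while in Il-17rb-Cre the members' sum was highest in replicate 3. Fits with a block are given here only. The title's number moved the counts from 10, 7 and 6 to 10, 3 and 0, and the library name's number to 10, 7 and 0. For Il-17ra-Cre against Il-17rc-Cre the number of genes called over all, 443 (281 higher, 162 lower), was 2101 with DESeq2, 4579 with limma voom, 692 with a filter at 1 CPM in 3 libraries, 442 with DESeq2 size factors (216 higher, 226 lower), 1 or 2 with a block, 1 in the model of those groups, and 0 to 2886 with a single library left out. For Il-17rb-Cre against Il-17ra-Cre it fell from 8268 to 4192 without Il-17ra-Cre replicates 1 and 2. Upper quartile scaling moved the median of all genes by 0.13 and 0.10 in the comparisons with Il-17rb-Cre, and turned no member. The length alternative with the longest coding transcript was added after seeing the data and moved Trem2 to 27.9, 3.83 and 2.22 CPM per kilobase in Il-17ra-Cre, Il-17rb-Cre and Il-17rc-Cre. Counting error is largest for Csf1r and Tmem119 in Il-17rb-Cre replicate 1, with 7 and 0 reads; that library had 55007935 counts against 78794795 and 71867914 in replicates 2 and 3, and the cause of the low reads was not tested.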
